A study of Mus musculus with 8 samples.

Results

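The insulin-like growth factor (IGF) axis was followed in chronic stroke infarcts of aged mice that had received either vehicle or a cyclodextrin. It was taken as 10 genes by name, namely the ligands *Igf1* and *Igf2*, the receptors *Igf1r* and *Igf2r*, and the binding proteins *Igfbp2* to *Igfbp7*. All 10 were among the 46078 genes counted and among the 14736 that held enough reads to be tested. In HPβCD-treated mice, *Igf2r*, *Igfbp4* and *Igfbp6* passed the test, each at about 2 times its vehicle level. These 3 calls lay close to the threshold (edgeR adjusted p 0.0472 to 0.0483), and each held in only 3 of the 8 fits that left out 1 library. The lowest edgeR adjusted p of any gene tested was 0.0222, and the fits that lost the 3 calls called 0 to 4 genes in all. *Igf1*, *Igf2* and *Igfbp5* were also higher in every HPβCD infarct than in any vehicle infarct without passing the test, and *Igf1r*, *Igfbp2*, *Igfbp3* and *Igfbp7* overlapped between groups. Of all genes tested, 1.17% were called higher and 8.77% were higher in every HPβCD infarct than in any vehicle infarct.

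The ligands of this axis are small secreted proteins related to insulin. Both bind IGF1R, a tyrosine kinase receptor that drives growth and survival through PI3K and AKT, whereas IGF2R carries IGF2 and enzymes tagged with mannose-6-phosphate to the lysosome and passes on no kinase signal. The binding proteins hold the ligands in extracellular fluid and matrix, and secreted proteases release them. In the brain, IGF1 comes mainly from blood, microglia, macrophages and some neurons, and IGF2 mainly from the choroid plexus, meninges and vessels.

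Messenger RNA was measured by bulk sequencing in infarcts of 8 wild-type C57BL/6J mice, male and 18 months old. Every animal had a DH stroke, which joins occlusion of the distal middle cerebral artery with a period of low oxygen. Subcutaneous injections began 1 week after stroke, were given 3 times a week for 6 weeks, and held either PBS (vehicle, n = 4) or 4 g/kg 2-hydroxypropyl-β-cyclodextrin (HPβCD, n = 4), a sugar ring that takes up cholesterol. Tissue was taken at 7 weeks after stroke as pieces found by eye and cut by hand, which sets no fixed share of adjoining brain, and no group without stroke or from the other hemisphere is compared here.

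The libraries held 16616909 to 32933164 gene counts, and the deepest was vehicle animal 2. No member had fewer than 134 counts in any library, so counting error was small beside the differences between animals. The pieces differed in makeup: the summed level of 8 neuronal markers was 6048 CPM (counts relative to the library total) in vehicle animal 3 and 1022 in vehicle animal 1, against 7.84 to 84.3 in the other 6 libraries, and one of those markers, *Gad2*, had no count in at least 1 library. Fold changes of most members are therefore also given without vehicle animals 1 and 3. Fold changes of the other pathway genes are given with all animals, and may rest in part on these 2. Levels below are CPM scaled by TMM, a factor that levels the bulk of genes between libraries. Fold changes are fitted log2 values from edgeR with a standard error (SE), and a gene was called changed where its Benjamini-Hochberg adjusted p, taken over the whole table, was under 0.05.

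*Igf2r*, the receptor that removes IGF2, lies on chromosome 17 (GRCm38, 12682406 to 12769664, minus strand). Its level was 123, 185, 128 and 165 CPM in vehicle animals 1 to 4, and 271, 358, 284 and 270 CPM in HPβCD animals 1 to 4. All HPβCD infarcts lay above all vehicle infarcts, and HPβCD animal 2 stood above its group. The mean was 150 ± 29.7 CPM (SD, n = 4) with vehicle and 296 ± 42.0 CPM with HPβCD. By the edgeR quasi-likelihood test HPβCD was 0.98 higher on the log2 scale (SE 0.18, adjusted p = 0.0483).

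*Igfbp4*, a soluble binding protein that restrains the ligands until the protease PAPP-A cleaves it, lies on chromosome 11 (99041244 to 99054392, plus strand). Vehicle infarcts held 508, 827, 582 and 792 CPM and HPβCD infarcts 1554, 1493, 1357 and 1345 CPM. The groups were far apart, and the 4 HPβCD animals were close to one another. On the log2 scale HPβCD was 1.09 higher by edgeR (SE 0.20, adjusted p = 0.0483), on means of 677 ± 156 and 1437 ± 103 CPM (SD, n = 4).

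*Igfbp6*, which binds IGF2 more tightly than IGF1, lies on chromosome 15 (102144362 to 102149511, plus strand). Its level was 81.2, 75.4, 106 and 101 CPM with vehicle and 183, 207, 176 and 146 CPM with HPβCD. The lowest HPβCD value came from animal 4 and was still above every vehicle value. edgeR put the log2 difference at 0.97 (SE 0.17, adjusted p = 0.0472), and the group means were 91.0 ± 15 and 178 ± 25.4 CPM (SD, n = 4).

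These 3 of 10 members were called higher and 0 were called lower, where 1.95% of all genes tested were called in either direction and 1.17% were called higher. At an unadjusted p under 0.05 the count was 6 members higher, against 27.8% of all genes in either direction. DESeq2 called 6 members, all higher (the 3 above with *Igf2*, *Igfbp5* and *Igfbp7*), where it called 17.8% of all genes and 6.92% higher. limma-voom called 4, the 3 above and *Igf2*, where it called 22.1% of all genes. For *Igf2r*, *Igfbp4* and *Igfbp6* the adjusted p was 0.000114, 2.24e-05 and 3.04e-05 by DESeq2, and 0.00665, 0.0056 and 0.00512 by limma-voom. All 3 calls by edgeR lay close to the threshold, where the lowest adjusted p of all genes tested was 0.0222. Each call was lost when vehicle animal 1, vehicle animal 4, or HPβCD animal 1, 2 or 3 was left out. In those fits the adjusted p-values were up to 0.175 by edgeR and the log2 fold changes between 0.88 and 1.18. Those fits called 0 to 4 of all genes tested. Without vehicle animals 1 and 3 together, *Igf2r* was 0.77 higher (SE 0.17, edgeR adjusted p = 0.0613), *Igfbp4* 0.84 higher (SE 0.15, adjusted p = 0.0419) and *Igfbp6* 1.02 higher (SE 0.19, adjusted p = 0.0437) on the log2 scale.

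**Figure D1:**
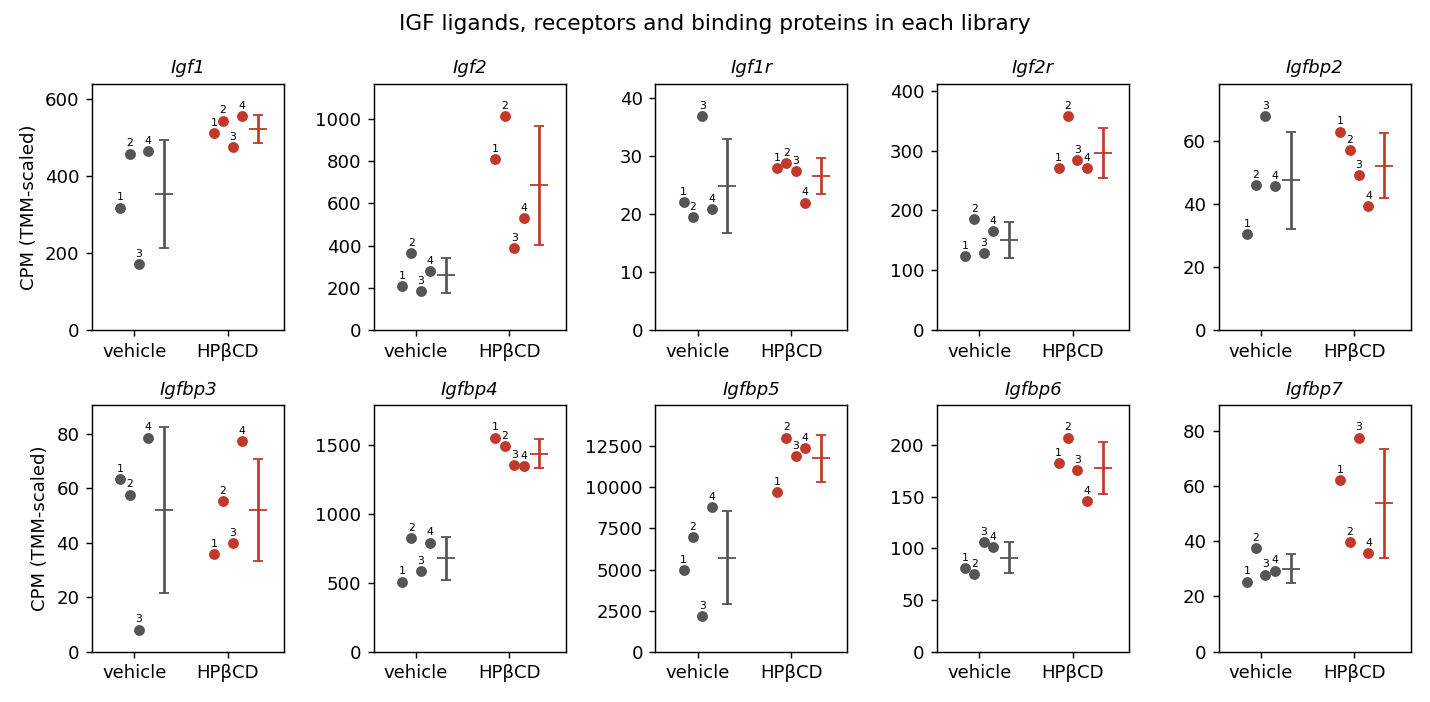
Levels of the 10 IGF genes in each infarct, in CPM scaled by TMM on axes that start at 0; each point is 1 animal with its number (grey vehicle, red HPβCD, n = 4 each), and bars give the mean ± SD. The groups do not overlap for *Igf1*, *Igf2*, *Igf2r*, *Igfbp4*, *Igfbp5* and *Igfbp6*, and vehicle animal 3 is the lowest library for *Igf1*, *Igf2*, *Igfbp3* and *Igfbp5*.

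The sequences before the start sites of the called genes are shown because all 3 passed the test in the same direction, and one stretch of *Igf2* is set beside them as the ligand of *Igf2r*. Each is the 150 bases before a RefSeq start on GRCm38.p6, read 5′ to 3′ on the gene's own strand: chr17:12769707-12769856 (minus) for *Igf2r*, chr11:99041094-99041243 (plus) for *Igfbp4*, chr15:102144036-102144185 (plus) for *Igfbp6* and chr7:142657497-142657646 (minus) for the start of *Igf2* that lies furthest 3′ of the 4 listed. Capitals mark 3 motifs searched on both strands: the E-box CACGTG, the TATA box TATAAA and the GC box GGGCGG, where adjoining hits run together.
Igf2r: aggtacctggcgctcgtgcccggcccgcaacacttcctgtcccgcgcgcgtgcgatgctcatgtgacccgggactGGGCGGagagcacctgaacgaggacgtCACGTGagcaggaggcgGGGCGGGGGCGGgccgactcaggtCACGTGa
Igfbp4: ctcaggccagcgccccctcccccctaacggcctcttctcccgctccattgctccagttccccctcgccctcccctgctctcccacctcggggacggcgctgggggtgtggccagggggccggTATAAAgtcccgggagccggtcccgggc
Igfbp6: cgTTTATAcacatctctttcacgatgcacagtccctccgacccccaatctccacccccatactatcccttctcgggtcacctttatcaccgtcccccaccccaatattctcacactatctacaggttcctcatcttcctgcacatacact
Igf2: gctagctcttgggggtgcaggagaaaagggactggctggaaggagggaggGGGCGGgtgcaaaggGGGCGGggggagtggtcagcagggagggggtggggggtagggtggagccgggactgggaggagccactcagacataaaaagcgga

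No motif stood before all 3 called genes. The *Igf2r* stretch held 2 E-boxes, which begin 48 and 7 bases before the start, and 3 GC boxes. Of 32851 windows of the same length before RefSeq starts, 4.295% held an E-box, 0.2679% held more than 1, and 28.62% held a GC box. *Igfbp4* had a TATA box 28 bases before its start, *Igfbp6* had the same letters on the other strand 148 bases before, and 7.574% of windows held them. The *Igf2* stretch had 2 GC boxes. Across all listed starts of the 10 members, the E-box stood before 2 genes, *Igf2r* and *Igfbp2*, the TATA box letters on either strand before 2 and the GC box before 5. Counted in the same way over 27025 genes, the E-box stood before 1329, the TATA box letters before 2403 and the GC box before 8459. The motifs were chosen after these sequences were seen, and a match is a description of the letters.

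Among the ligands, *Igf2*, the fetal growth factor that adult meninges and choroid plexus keep expressing, had the largest fitted fold change of the members without passing the test. It lies on chromosome 7 (142650766 to 142666816, minus strand). Its level was 208, 362, 183 and 280 CPM in vehicle infarcts and 810, 1015, 387 and 530 CPM in HPβCD infarcts. The HPβCD animals were spread widely, with animals 1 and 2 at the top and animal 3 near the highest vehicle value. Its log2 fold change by edgeR was 1.41 (SE 0.34, adjusted p = 0.063), on means of 258 ± 80.7 and 686 ± 281 CPM (SD, n = 4). DESeq2, run on the same genes, gave an adjusted p of 0.00145 for the same fold change, and without vehicle animals 1 and 3 it was 1.11 by edgeR (SE 0.37, adjusted p = 0.154). In the GENCODE M21 annotation, 62.8% of its exon length is shared with the gene model Gm49394 on the same strand, which has no entry in the count tables, so *Igf2* reads and reads of that model cannot be told apart.

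*Igf1*, the ligand that macrophages and microglia make in injured tissue, lies on chromosome 10 (87858265 to 87937042, plus strand). It measured 318, 458, 170 and 465 CPM with vehicle and 512, 543, 476 and 556 CPM with HPβCD. The groups did not overlap, but vehicle animals 2 and 4 lay just under the lowest HPβCD infarct, and the gap between means came largely from vehicle animals 1 and 3. By edgeR the log2 fold change was 0.57 (SE 0.29, adjusted p = 0.244), and it was 0.34 without vehicle animal 3 and 0.19 (SE 0.14, adjusted p = 0.451) without vehicle animals 1 and 3.

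*Igf1r*, the signalling receptor, lies on chromosome 7 (67952827 to 68233668, plus strand), and its groups overlapped. Vehicle infarcts held 21.9, 19.4, 36.9 and 20.8 CPM, and HPβCD infarcts 27.8, 28.7, 27.3 and 21.9 CPM. Vehicle animal 3, the library with the highest neuronal marker sum, was the highest of all 8. The fitted log2 difference was 0.10 by edgeR (SE 0.22, adjusted p = 0.819), and it was 0.35 (SE 0.14, adjusted p = 0.143) without that animal.

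Set against each other, the 2 receptors gave a ratio that did not overlap between groups. *Igf2r* alone did not overlap either, so the ratio is not a separate result, and the share of such ratios over other genes was not computed. Per exon length, *Igf2r* stood at 10.1, 17.2, 6.26 and 14.3 times *Igf1r* in vehicle animals 1 to 4. The ratio was 17.6, 22.5, 18.7 and 22.3 in HPβCD animals 1 to 4, and these lay above all vehicle animals. The lowest ratios were those of vehicle animals 1 and 3, and without them the highest vehicle ratio, 17.2, still lay just under the lowest HPβCD ratio, 17.6. The *Igf2* to *Igf1* ratio overlapped, at 1.04 to 1.86 with vehicle and 1.41 to 3.23 with HPβCD.

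*Igfbp5*, a binding protein held in matrix and made by fibroblasts and smooth muscle cells, was the most abundant member by far. Its level was 4964, 6985, 2170 and 8798 CPM in vehicle infarcts and 9732, 13041, 11889 and 12398 CPM in HPβCD infarcts. Vehicle animal 3 stood lowest, and vehicle animal 4 lay close under HPβCD animal 1. edgeR fitted a log2 fold change of 1.04 (SE 0.39, adjusted p = 0.129), on means of 5729 ± 2843 and 11765 ± 1435 CPM (SD, n = 4), and without vehicle animals 1 and 3 it was 0.59 (SE 0.20, adjusted p = 0.142). DESeq2 gave it an adjusted p of 0.0417. *Igfbp5* (72857932 to 72874884, minus strand) and *Igfbp2* (72824503 to 72852474, plus strand) are neighbours on chromosome 1, 5.457 kb apart on opposite strands, and the groups overlapped for *Igfbp2*.

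*Igfbp2*, the binding protein of astrocytes and meninges, measured 30.4, 46.1, 68.1 and 45.6 CPM with vehicle and 63.1, 57.2, 49.2 and 39.4 CPM with HPβCD. The groups overlapped throughout and the highest library was vehicle animal 3. By edgeR the difference was 0.14 in log2 (SE 0.25, adjusted p = 0.769), and it turned to -0.023 without vehicle animal 1.

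*Igfbp3*, the main carrier of IGF1 in blood, lies on chromosome 11 (7206086 to 7213923, minus strand). Vehicle infarcts held 63.6, 57.8, 8.11 and 78.7 CPM, and HPβCD infarcts 36.0, 55.5, 39.9 and 77.3 CPM. Vehicle animal 3 was far below the other 7 libraries, whose groups overlapped. edgeR fitted 0.003 in log2 (SE 0.60, adjusted p = 0.998) and -0.35 (SE 0.26, adjusted p = 0.399) without that animal. Scaling by library totals alone also turned its sign, to -0.11.

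*Igfbp7*, a matrix protein of vessels that binds IGFs weakly, lies on chromosome 5 (77349240 to 77408041, minus strand). It measured 25.3, 37.5, 27.8 and 29.3 CPM with vehicle and 62.1, 39.5, 77.5 and 35.7 CPM with HPβCD. HPβCD animals 1 and 3 were high, whereas animals 2 and 4 lay beside vehicle animal 2. Its fitted log2 fold change was 0.84 by edgeR (SE 0.26, adjusted p = 0.0931), and DESeq2 gave an adjusted p of 0.0298. By edgeR the log2 fold change was 0.70 (SE 0.32, adjusted p = 0.256) without vehicle animals 1 and 3. Some 7.03% of its exon length lies opposite *Polr2b*, and the strand setting of the counting was not given in the sources used here, so reads of the pair cannot be told apart there.

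Over the 10 members, all 4 HPβCD infarcts were above all 4 vehicle infarcts for 6 genes and below them for 0, where 8.77% of all genes tested were above and 8.03% below. The median log2 fold change was 0.90 over the members and -0.045 over all genes tested. All 10 fitted values were above 0, although that of *Igfbp3* fell to -0.11 under library totals alone, and 45.9% of all genes had a fitted value above 0. The lowest of the 8 libraries was a vehicle animal for each member: animal 3 for 4 genes, animal 1 for 4 and animal 2 for 2. The coefficient of variation was larger with vehicle for 8 of 10 members, at 16.4% to 58.8% over the members, against 6.88% to 41.0% with HPβCD. The shares of all genes for these counts of lowest library and of spread were not computed, so neither is read as particular to the members. Over the genes at large, pairs of vehicle libraries differed by a chi-square per degree of freedom of 45.1 to 502. Pairs of HPβCD libraries differed by 20.3 to 81.6. This chi-square grows with depth, and the value of 502 paired vehicle animal 2, the deepest library, with vehicle animal 3. Vehicle animals 3 and 4 differed by 323.

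**Figure D2:**
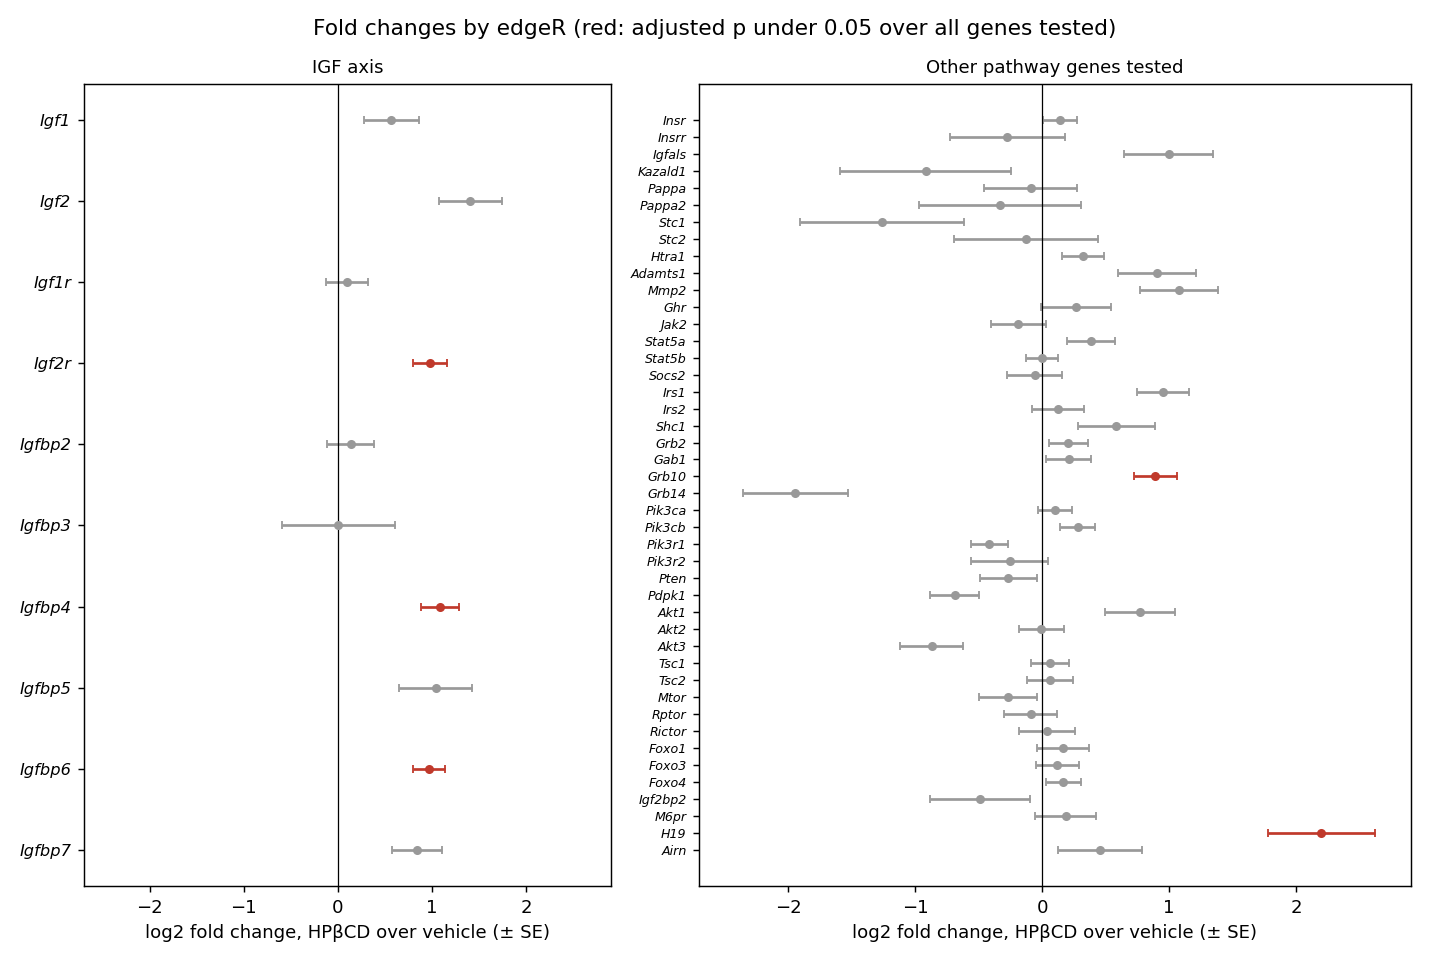
Log2 fold change of HPβCD over vehicle by edgeR with its SE as bars, for the 10 members (left) and the 44 other pathway genes tested (right); red marks the genes called at an adjusted p under 0.05. The members have a median of 0.90 and 3 calls, the other pathway genes a median of 0.08 and 2 calls, *Grb10* and *H19*.

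Levels can be compared between genes only per length, so each count was divided by the gene's merged exon length and scaled to the same sum in every library, a CPM per length. These length-scaled levels are read within a group only. With vehicle the order was *Igfbp5* (2300 ± 1239, SD, n = 4), *Igfbp4* (364 ± 116), *Igfbp6* (190 ± 21.6), *Igf2* (108 ± 44.9), *Igf1* (85.7 ± 39.7), *Igfbp2* (59.6 ± 16.2), *Igfbp7* (58.8 ± 16.3), *Igfbp3* (40.1 ± 23.9), *Igf2r* (38.3 ± 11.3) and *Igf1r* (3.38 ± 0.762). Neighbours from *Igfbp6* to *Igf2r* overlapped in range, whereas *Igfbp5*, *Igfbp4* and *Igf1r* stood clear of the genes next to them.

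With HPβCD the first 5 places and the last were the same. The length-scaled levels were 5512 ± 550 for *Igfbp5*, 920 ± 104 for *Igfbp4*, 453 ± 77.0 for *Igfbp6*, 337 ± 136 for *Igf2* and 148 ± 3.95 for *Igf1* (SD, n = 4). They were followed by *Igfbp7* (128 ± 54.9), *Igf2r* (89.6 ± 12.4), *Igfbp2* (80.3 ± 19), *Igfbp3* (46.2 ± 13.3) and *Igf1r* (4.47 ± 0.733). *Igf2r* moved from the ninth place to the seventh, but its range overlapped those of *Igfbp7* and *Igfbp2*. *Igfbp6* and *Igf2* overlapped, *Igf2* was clear of *Igf1*, and *Igfbp3* was clear of *Igf1r*.

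Binding protein transcripts outweighed ligand transcripts in every infarct. The summed length-scaled level of the 6 binding proteins was 15.4 ± 2.58 times that of the 2 ligands with vehicle and 15.7 ± 4.96 times with HPβCD (SD, n = 4). *Igfbp5* supplied 72.9% ± 11.7 of the binding protein sum with vehicle and 77.1% ± 3.24 with HPβCD. The lowest share, 55.5%, was in vehicle animal 3, where *Igfbp4* supplied 20.3% and *Igfbp6* 14.6%.

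**Figure D3:**
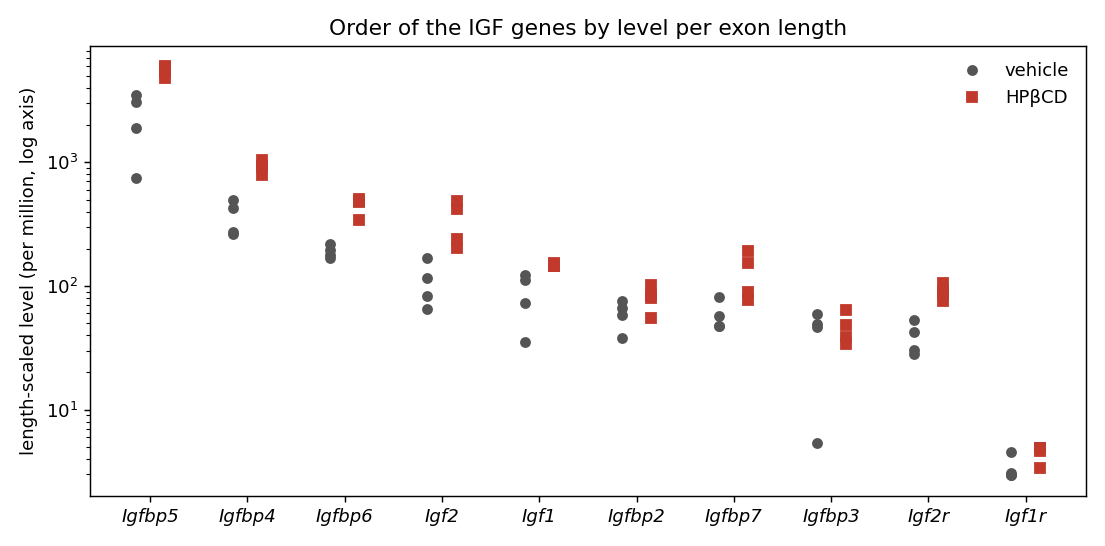
Length-scaled level of each member in each infarct (CPM per length, log axis), ordered by the vehicle mean; grey circles are vehicle and red squares HPβCD, n = 4 each. *Igfbp5* leads and *Igf1r* is last in both groups, while the genes between *Igfbp6* and *Igf2r* overlap with a neighbour.

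Many members are genes of fibroblasts, meninges and vessels, so they were set beside marker lists. In bulk tissue, fewer cells of a type and less RNA per cell cannot be told apart. The summed level of 8 fibroblast markers was 2413 to 6146 CPM with vehicle and 8736 to 9350 CPM with HPβCD, with 6 of 8 fitted values above 0 and 2 called higher, *Col1a1* and *Col1a2*. The sum of 6 macrophage markers was 9556 to 21410 CPM with vehicle and 26263 to 32352 CPM with HPβCD, with 4 of 6 above 0 and 1 called higher, *Gpnmb*. Neither list had a marker at 0. Vehicle animals 1 and 3, which had the highest neuronal marker sums, were lowest in both. Their fibroblast sums were 3626 and 2413 CPM, against 6146 and 5518 CPM in vehicle animals 2 and 4. Their macrophage sums were 9556 and 10145 CPM, against 15307 and 21410 CPM.

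The 6 mural markers summed to 376 to 571 CPM with vehicle and 553 to 864 CPM with HPβCD. Of these, 6 of 6 fitted values were above 0 and 1 was called higher, *Pdgfrb*. Endothelial markers summed to 418 to 472 and 453 to 806 CPM, with 6 of 6 fitted values above 0 and 0 of 6 called by edgeR. Astrocyte markers summed to 2405 to 8711 CPM with vehicle and 881 to 2499 CPM with HPβCD, oligodendrocyte markers to 1518 to 4876 and 158 to 1930 CPM, microglia markers to 304 to 567 and 185 to 313 CPM, and plasma cell markers to 1192 to 2647 and 327 to 563 CPM. Vehicle animals 1 and 3 held astrocyte sums of 6795 and 8711 CPM, against 2405 and 3678 CPM in vehicle animals 2 and 4. For oligodendrocyte markers these sums were 4876 and 1518 CPM against 2254 and 3031 CPM. Fitted values were above 0 for 1 of 6 astrocyte, 0 of 6 oligodendrocyte, 1 of 6 microglia and 1 of 6 plasma cell markers. The microglia marker *Siglech* and the plasma cell marker *Jchain* were called lower, and 0 of 6 astrocyte and 0 of 6 oligodendrocyte markers were called by edgeR. Markers of the choroid plexus, a tissue known for *Igf2*, were low throughout: the sum of 6 was 15.7 to 22.5 CPM over the 8 libraries, and *Otx2* had no count in at least 1.

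Set against the fibroblast marker sum of the same library, the HPβCD group was above vehicle for none of the 10 members, as for nearly all genes, of which 0.0407% were above and 67.1% below. As a share of that sum, *Igf2* was 5.07% to 7.57% with vehicle and 4.14% to 11.1% with HPβCD, *Igf2r* 2.98% to 5.31% and 3.03% to 3.90%, *Igfbp4* 13.5% to 24.1% and 14.5% to 17.8%, *Igfbp6* 1.23% to 4.39% and 1.66% to 2.26%, and *Igfbp5* 90.0% to 159% and 111% to 142%. In all, 8 members overlapped and *Igf1* and *Igfbp2* were below vehicle, *Igf1* at 7.05% to 8.76% against 5.09% to 6.34%. Vehicle animal 3 held the highest vehicle share of *Igf2*, *Igf2r*, *Igfbp4* and *Igfbp6*. In vehicle animals 2 and 4, the share was 13.5% and 14.3% for *Igfbp4* and 3.01% and 2.98% for *Igf2r*. These lay just under the lowest HPβCD shares, 14.5% and 3.03%, whereas *Igf2*, *Igfbp5* and *Igfbp6* still overlapped. The share of all genes above vehicle without animals 1 and 3 was not counted. Against the macrophage marker sum, all 10 overlapped, where 0.0339% of all genes tested were above and 59.2% below. Both sums are weighted to their abundant markers, some of them called higher, so the ratios are not levels per cell. *Col1a2* had means of 922 CPM with vehicle and 2533 CPM with HPβCD, and *Gpnmb* 4154 and 10803 CPM. Ratios to the mural and endothelial sums were not taken. The part of fibroblasts and of macrophages in the IGF results was not tested beyond these ratios.

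**Figure D4:**
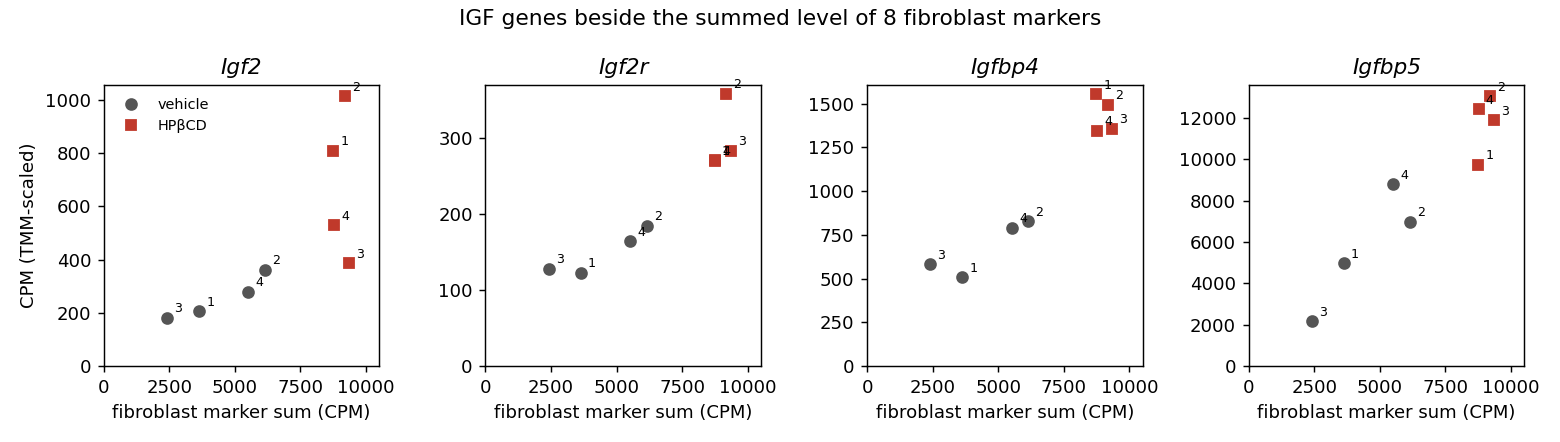
Levels of *Igf2*, *Igf2r*, *Igfbp4* and *Igfbp5* against the summed level of 8 fibroblast markers (both in CPM scaled by TMM, axes from 0), with 1 point per animal and its number; grey circles are vehicle and red squares HPβCD. The HPβCD infarcts lie at 8736 to 9350 CPM on the marker axis, to the right of all vehicle infarcts, and *Igf2* spreads from 387 to 1015 CPM among them.

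The genes around the axis were taken from a list of proteases, insulin genes, adaptors and downstream kinases. Of 52 other genes of the pathway, 44 were tested, and 2 were called higher and 0 lower (1.17% and 0.774% of all genes tested). Their median log2 fold change was 0.084, and HPβCD was above vehicle for 6 (13.6% of those tested, against 8.77% of all genes) and below for 3 (8.03% of all genes). One of the calls was *Grb10*, an imprinted adaptor that binds the activated insulin and IGF1 receptors and damps their signal. It measured 83.1, 123, 87.5 and 121 CPM with vehicle and 195, 214, 176 and 184 CPM with HPβCD, 0.89 higher in log2 by edgeR (SE 0.17, adjusted p = 0.0483).

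The other was *H19*, the imprinted noncoding RNA that lies 72.62 kb from *Igf2* and is expressed from the opposite parental copy. Its level was 11.4, 18.1, 5.27 and 21.6 CPM with vehicle and 73.5, 83.4, 42.9 and 59.1 CPM with HPβCD, 2.20 higher in log2 by edgeR (SE 0.42, adjusted p = 0.0483). Both calls were lost when vehicle animal 1 or 4 or any 1 HPβCD animal was left out. As for *Igf2*, HPβCD animal 3 was the lowest of its group and animals 1 and 2 the highest, and the groups did not overlap. *Airn*, the noncoding RNA that overlaps *Igf2r* on the other strand, was at 1.06 ± 0.250 and 1.46 ± 0.505 CPM (SD, n = 4), and its log2 fold change by edgeR was 0.45 (SE 0.33, adjusted p = 0.411).

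Of 8 proteases of the binding proteins and their inhibitors, 7 were tested and 0 passed by edgeR (adjusted p 0.0814 to 0.906). The most abundant were *Htra1*, a serine protease that cleaves binding proteins, with means of 234 and 292 CPM and a log2 fold change of 0.32 (SE 0.16), and *Mmp2*, a gelatinase, with 91.0 and 192 CPM and 1.08 (SE 0.31). *Mmp2* was higher in every HPβCD animal, at 182 to 207 CPM against 39.3 to 123. Of 4 insulin and insulin receptor genes, *Insr* had means of 91.8 and 101 CPM (log2 fold change 0.14, SE 0.14), whereas *Ins1* and *Ins2* had 0 counts in all 8 libraries. *M6pr*, the smaller mannose-6-phosphate receptor, overlapped between groups at 526 ± 162 and 598 ± 63.8 CPM (log2 fold change 0.18, SE 0.24).

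Downstream of the receptor, 0 of 14 PI3K, AKT and mTOR genes passed by edgeR (adjusted p 0.078 to 0.988), with 6 fitted values above 0 and 8 below. *Akt1* had the highest mean of them and measured 169, 140, 254 and 165 CPM with vehicle and 415, 310, 335 and 183 CPM with HPβCD (log2 fold change 0.77, SE 0.28). *Pik3ca*, the catalytic subunit, differed by 0.10 (SE 0.14). Among 7 adaptors, *Grb2* differed by 0.21 (SE 0.15) and *Shc1* by 0.58 (SE 0.30). Another pair of adaptors, named after their values were seen, fell just short of a call in opposite directions. *Irs1*, a docking protein of the insulin and IGF1 receptors, was at 14.8 to 23.9 CPM with vehicle and 31.0 to 41.9 CPM with HPβCD (0.95 higher in log2 by edgeR, SE 0.20, adjusted p = 0.0522). *Grb14*, an adaptor related to *Grb10*, was at 1.58 to 5.15 CPM with vehicle and 0.632 to 1.29 CPM with HPβCD, a log2 fold change of -1.94 by edgeR (SE 0.42, adjusted p = 0.0522). The 3 FoxO factors tested, which AKT keeps out of the nucleus, ranged from 0.12 to 0.17, with *Foxo3* and *Foxo1* the most abundant.

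The remaining lists held 0 calls by edgeR. All 5 genes of the growth hormone arm, which sets IGF1 output in liver, were tested, with log2 fold changes from -0.19 to 0.38 (adjusted p 0.218 to 0.991). Of 4 other binding proteins, *Igfals* and *Kazald1* were tested (adjusted p 0.114 and 0.414), and *Igfbp1*, a liver gene, had 3 counts in vehicle animal 3 and 0 in the other 7 libraries. Of the 3 proteins that bind *Igf2* mRNA, *Igf2bp2* alone was tested, with a log2 fold change of -0.49 (edgeR adjusted p = 0.464).

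The genes most like each ligand in pattern were found by Pearson's r of log2 CPM over the 8 libraries, among 9386 genes, as a description only, since the points share groups and tissue makeup. For *Igf1* these were *Galnt4*, *Itpripl2*, *Plod2*, *Bach1* and *Ticam2*, with r from 0.993 to 0.995, and 0.775 to 0.957 without the 2 libraries furthest from the median of *Igf1*. *Plod2* is a collagen lysyl hydroxylase and *Ticam2* an adaptor of TLR4. For *Igf2* these were *Ggcx*, *Slc9b2*, *Plpp3*, *Slc47a1* and *Psmd1*, with r from 0.979 to 0.988, and 0.952 to 0.976 without the 2 libraries furthest from its median. *Slc47a1* is an organic cation exporter and *Ggcx* the vitamin K-dependent carboxylase. The 2 sets had no gene in common.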

How the data were processed

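Infarct RNA from 8 mice (4 vehicle, 4 HPβCD) had been sequenced with polyA-selected, strand-specific libraries. The authors demultiplexed with bcl2fastq 2.19, trimmed with Trimmomatic 0.32, aligned paired reads to GRCm38 with STAR 2.5.2b and counted with htseq-count. The deposited values are raw counts per gene, 1 table per animal. The annotation release is not given in the sources used here. Lines for unassigned reads (26.6% to 36.6%) were left out.

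Genes passing filterByExpr by group (14736) were fitted with edgeR 4.0.16 in R 4.3.3 by the robust quasi-likelihood F test with TMM factors, no covariate and Benjamini-Hochberg adjustment over all of them. SE was the size of the fold change over the root of F. Alternatives were DESeq2 1.42.0 (the tool of the study), limma 3.58.1 (voom with quality weights), other scalings, no filter, a non-robust fit, a replicate block and each library left out. The procedure was run on counts simulated from the means and dispersions of these data, where the only pass rule was the direction of the changed genes. The simulated libraries did not hold the differences in tissue makeup between animals. log2 CPM used a prior count of 2. Exon lengths and positions came from GENCODE M21. Promoter stretches came from RefSeq and matched all 10 members; no protein sequence was used here.

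The labels give no batch, and whether animals were handled together is not stated. All libraries differed from one another beyond sampling noise (lowest chi-square per degree of freedom 20.3). Members, lists and tests were chosen with earlier results of these data known. Named are all members, every listed pathway gene that passed, at most the 2 most abundant others of a list, *H19* and the 5 genes of highest r for each ligand with a mean of at least 10 CPM. *Irs1*, *Grb14*, *Ins1*, *Ins2* and *Igfbp1* are named outside this rule, after their values were seen. Marker genes are named where they were called or had no count in a library.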

Additional observations from a re-analysis of the deposited data

Results flagged for a closer look

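Each group of 4 libraries was searched for a value that stands apart by Dixon's ratio, the gap to the nearest library over the whole range against the limit for 4 samples. Of 20 searches (10 members in 2 groups), 2 passed, where chance gives about 1 in 20. *Igfbp3* in vehicle animal 3 was at 3.04 log2 CPM, and the other vehicle animals at 5.86 to 6.30 (ratio 0.863). *Igf2r* in HPβCD animal 2 was at 8.49 log2 CPM, and the other HPβCD animals at 8.08 to 8.15 (ratio 0.832). Without HPβCD animal 2, the log2 fold change of *Igf2r* was 0.88 (SE 0.19, edgeR adjusted p = 0.175).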

How the results depend on the processing

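By edgeR 287 genes were called, with 3 members and 2 other pathway genes among them. DESeq2 called 2619, 6 and 8, limma-voom with quality weights called 3253 genes and 12 other pathway genes, the fit without robust estimation 98, 1 and 0, and library totals alone 11, 0 and 0. The cause was not tested. Leaving out 1 library gave 0 to 629 genes, 0 to 3 members and 0 to 4 other pathway genes. No gene passed without vehicle animal 1 or 4 or HPβCD animal 2 or 3, where 2922 to 4216 genes had an unadjusted p under 0.05, and 4 passed without HPβCD animal 1. Where no member passed, 5 to 7 had an unadjusted p under 0.05. *Igf2r* and *Igfbp4* also lost the call without robust estimation (adjusted p = 0.0511 each). With library totals alone, *Igf2r*, *Igfbp4* and *Igfbp6* were at adjusted p = 0.0579, 0.0579 and 0.0539. RLE scaling and no filter changed no member's call, but with no filter the other pathway genes called were 1 higher and 1 lower, against 2 higher and 0 lower in the main fit. Without vehicle animals 1 and 3, an alternative chosen after seeing the data, 202 genes, 2 members and 2 other pathway genes were called. *Igfbp3* turned to -0.43 by limma-voom, -0.11 with library totals alone, -0.35 to 0.29 when 1 library was left out (-0.023 without HPβCD animal 2, -0.24 without HPβCD animal 4), and -0.37 without vehicle animals 1 and 3. *Igfbp2* ranged from -0.023 to 0.36 when 1 library was left out (-0.023 without vehicle animal 1). The other 8 members kept their direction under all 16 alternatives.

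Replicate numbers are shared between groups, and whether they mark a pairing is not stated. Deviations of same-numbered animals from their group means correlated at r = -0.257, 0.244, 0.329 and 0.0975 for numbers 1 to 4. For animals of unlike number, r ran from -0.386 to 0.346, so these values cannot decide whether animals were paired. With the replicate block edgeR called 9 genes, 0 members and 0 other pathway genes (at an unadjusted p under 0.05, 3478, 7 and 12), and the adjusted p was 0.0777 for *Igf2r*, 0.0843 for *Igfbp4* and 0.0868 for *Igfbp6*.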
